A study of Arabidopsis thaliana with 28 samples.

Results

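The course of gene expression over the day was measured in Arabidopsis thaliana seedlings that never left 17 °C. All libraries labelled 17.0C were taken, 14 of the 28 in the series, which hold 7 times of day in each of 2 genotypes with 1 library per condition. The genotypes are pif7, a mutant of the transcription factor PIF7 whose allele the labels do not name, and Col-0, the wild type. Whole seedlings were 7 days old and came from plates of 1/2 MS medium kept in long days, with 16 h of light at 35 to 40 micromoles of photons per square metre per second and 8 h of darkness. Each genotype was sampled at lights on (ZT0) and 4, 5, 8, 12, 16 and 20 h later (ZT4 to ZT20). ZT0 and ZT16 lie at the light changes, and the labels do not say on which side. The other 14 libraries came from the same genotypes and times under a regime that warmed seedlings to 27 °C between ZT4 and ZT12. RNA of 30 to 40 mg of tissue was sequenced, so fewer cells of a type and less RNA per cell cannot be told apart. Since no replicates were named, both genotypes served as repeats of each time, and p-values measure the spread between these libraries.

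The plant circadian clock is a network of transcription factors that repress one another in turn through the day. MYB factors such as CCA1 and LHY are high around dawn and repress genes of the evening, the pseudo-response regulators follow one after the other and repress the MYB factors, and the evening complex of ELF3, ELF4 and LUX represses genes at night. Light, sugars and temperature set the clock, and its targets include genes of photosynthesis, starch turnover, pigments, growth and cold tolerance.

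Levels are given in TPM, a measure of transcript abundance that corrects for transcript length and library depth, as the authors deposited them. Sequencing depth was 1.70 to 2.13 gigabases per library, with medians of 2.02 in pif7 and 1.86 in Col-0. Between 19409 and 19853 genes reached 1 TPM. PIF7 stood at 3.12, 13.1, 12.4, 8.64, 3.46, 2.62 and 2.33 TPM from ZT0 to ZT20 in the pif7 libraries, against 9.74, 38.6, 34.5, 28, 14.7, 11.4 and 13.4 TPM in Col-0, so it was lower but detectable in pif7 at each time. Across genes, log2 levels of pif7 and Col-0 at the same time correlated with Pearson's r between 0.979 and 0.991. Each pif7 library had its highest r with the Col-0 library of its own time, except at ZT5, where r was 0.986 with Col-0 ZT5 and 0.987 with Col-0 ZT4. Genes are not independent replicates, and these values describe the libraries. The Col-0 library of ZT5 stood apart from that of pif7 for jasmonate and cold genes, and its values are given with those genes.

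Of 20594 genes with at least 1 TPM in at least 2 of the 14 libraries, 6459 varied with time of day (31.4%; limma's F test over the 7 times with a term for genotype, Benjamini-Hochberg adjusted p under 0.05). The amplitude of a gene is the difference between the highest and the lowest of its 7 mean levels on the log2(TPM + 1) scale, which understates the swing of low genes. It had a median of 1.03 among the genes that varied and 0.64 among all genes tested. Amplitudes reached 1 log2 unit in 3404 genes, 2 in 701, 4 in 85 and 6 in 15. Counts of list members that varied, given below, are to be read beside the 31.4% of all genes tested. The share of genes called grew with abundance, with 10.3% of 834 genes with a mean under 1 TPM and 44.8% of 1809 genes with a mean of 100 TPM or more, so a gene of low abundance that was not called is less informative.

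The sampled time of the highest mean is called the peak. Of the genes that varied, 1018 peaked at ZT0, 781 at ZT4, 648 at ZT5, 1197 at ZT8, 404 at ZT12, 1528 at ZT16 and 883 at ZT20. Of all genes tested, 13.5, 10.7, 16.2, 14.3, 9.6, 23.4 and 12.3% had their highest mean at these times in order. Among genes that varied, ZT8 held 18.5%, above its share of all genes tested, ZT12 held 6.3%, below it, and ZT16 held 23.7%, near it. The times are unequally spaced, with ZT4 and ZT5 only 1 h apart, so the counts per time cannot be compared directly. Genes that peaked at ZT8 had the largest median amplitude, 1.21 log2 units, and those at ZT20 the smallest, 0.89. Of the 701 genes with an amplitude of at least 2, 217 peaked at ZT8, 131 at ZT0 and 43 at ZT12. The commonest pair of extremes was a peak at ZT8 with the lowest level at ZT0, in 648 genes, followed by a peak at ZT16 with the lowest level at ZT5, in 547. Peak counts depended on scaling. With TPM as deposited, which keeps a shift between libraries that touches most genes, 770 genes peaked at ZT12 and 1244 at ZT16, and with quantile normalization 537 and 1339. The peak was the same as with median-ratio scaling for 5477 of the 6459 genes (84.8%) with TPM as deposited and for 5879 (91.0%) with quantile normalization.

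**Figure D1:**
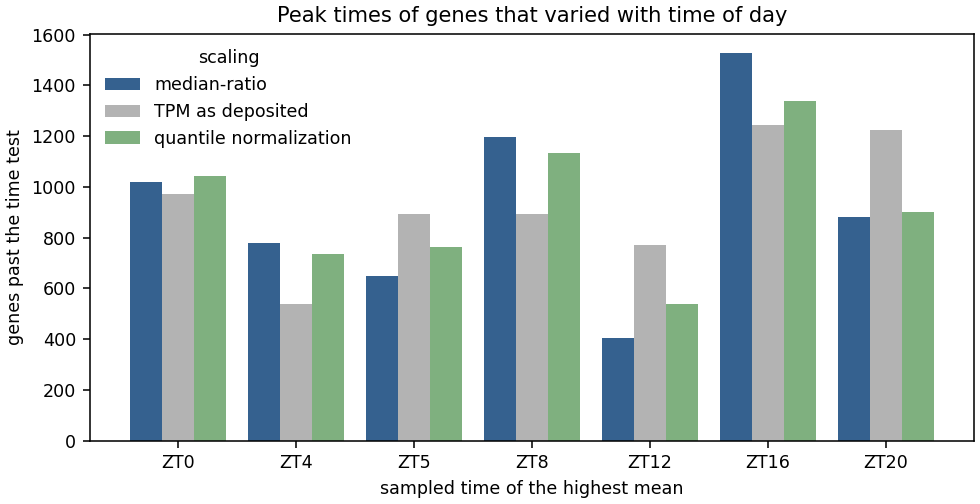
Number of genes past the time test (vertical axis) by the sampled time of their highest mean (horizontal axis), under 3 ways of scaling the libraries. ZT16 is the commonest peak under each, with 1528, 1244 and 1339 genes, while the count at ZT12 runs from 404 to 770. With median-ratio scaling ZT16 holds 23.7% of these genes and 23.4% of all genes tested.

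LHY and CCA1, MYB factors of the dawn which bind and repress evening genes, had amplitudes of 8.22 ± 0.25 and 7.39 ± 0.26 log2 units (SE from the fit, adjusted p = 2.19e-08 and 4.8e-08 in limma). LHY (AT1G01060, TAIR10 chromosome 1, 33379 to 37871, minus strand) stood at 428, 77.9, 42.8, 2.07, 0.557, 2.93 and 90.7 TPM from ZT0 to ZT20 in pif7. In Col-0 it stood at 461, 69.1, 41.7, 4.27, 0.462, 4.42 and 137 TPM. In both genotypes it was highest at ZT0, lowest at ZT12 and high again in the middle of the night. CCA1 (AT2G46830, chromosome 2, 19245672 to 19248914, plus strand) had 248, 102, 80.3, 2.96, 0.538, 0.952 and 17.9 TPM in pif7 and 266, 94.2, 59.9, 6.11, 0.581, 0.847 and 27.9 TPM in Col-0. At ZT20 LHY was above CCA1 in both genotypes, 90.7 against 17.9 TPM in pif7 and 137 against 27.9 TPM in Col-0. LHY rose by 4.50 ± 0.25 log2 units and CCA1 by 3.54 ± 0.26 from ZT16 to ZT20.

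Among the 8 REVEILLE genes, relatives of CCA1 with activating or repressing roles, 7 varied with time. RVE8 and RVE4, activators of evening genes, and RVE1, which links the clock to auxin, peaked at ZT0 with amplitudes of 6.13, 3.08 and 5.42. RVE2 (AT5G37260, chromosome 5, 14751344 to 14753088, minus strand) peaked 4 h earlier and had the highest level of the listed clock genes at ZT16 and ZT20. Its levels were 738, 21.7, 19.4, 24.3, 219, 391 and 916 TPM in pif7 and 522, 28.4, 23, 27.5, 203, 496 and 977 TPM in Col-0. It rose by 2.81 ± 0.23 log2 units between ZT8 and ZT12, when LHY and CCA1 were low. RVE7 differed from the others in its peak at ZT5, with 53.8 TPM in pif7 and 49.4 TPM in Col-0. RVE5 varied little, with an amplitude of 0.92, and RVE6 did not pass (amplitude 0.37, adjusted p = 0.429). Peak times of the 9 MYB genes that varied were spread over the same times under all 3 scalings, with 6 at ZT0, 1 at ZT5 and 2 at ZT20.

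**Figure D2:**
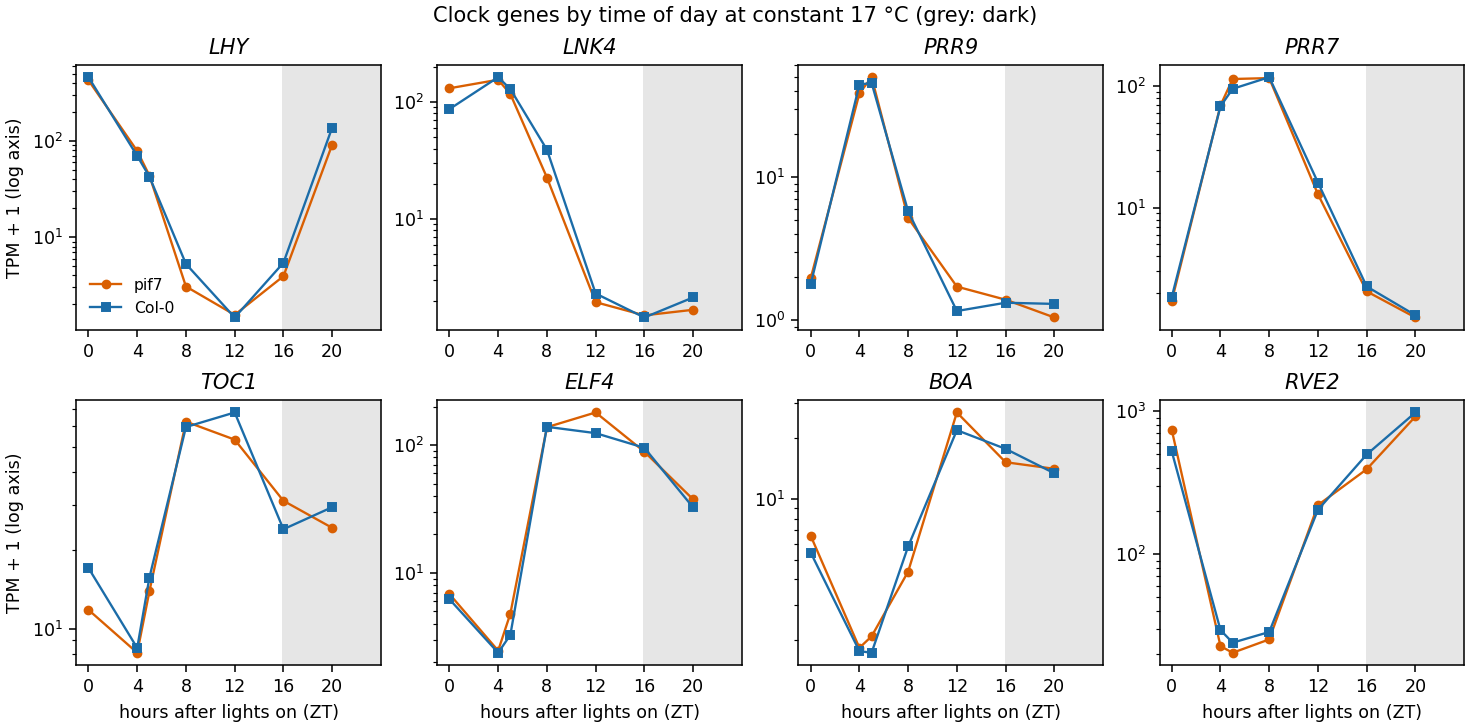
TPM plus 1 on a log axis against hours after lights on for 8 clock genes, with pif7 as circles and Col-0 as squares, 1 library per point, and the dark hours in grey. LHY is highest at ZT0, LNK4 at ZT4, PRR9 at ZT4 and ZT5, PRR7 at ZT8, BOA at ZT12 and RVE2 at ZT20 in both genotypes.

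The 5 pseudo-response regulators, repressors of CCA1 and LHY, all varied, with peaks from ZT5 to ZT12. PRR9 (AT2G46790) peaked at ZT5, with 0.961, 37.2, 48.6, 4.17, 0.721, 0.395 and 0.0486 TPM in pif7 and 0.784, 43.0, 44.3, 4.76, 0.163, 0.329 and 0.304 TPM in Col-0. PRR7 (AT5G02810) was broader, with 0.720, 68.2, 113, 115, 11.9, 1.06 and 0.258 TPM in pif7 and 0.848, 67.0, 93.7, 117, 15.1, 1.26 and 0.312 TPM in Col-0. PRR9 was thus down to 4.17 and 4.76 TPM at ZT8, when PRR7 was at its highest. PRR5 (AT5G24470) stood out by a narrow peak, with 92.3 TPM at ZT8 in pif7 and 86.3 TPM in Col-0, against 11.5 and 12.0 TPM at ZT5 and 7.65 and 8.5 TPM at ZT12. Its amplitude was 5.49 with ZT8 and 2.54 with both ZT8 libraries left out. PRR3 peaked at ZT12 with 39.9 TPM in pif7 and 40.4 TPM in Col-0. TOC1, the evening member of the family, had its highest mean at ZT8 (amplitude 2.92), with 61.5 TPM at ZT8 and 52.3 TPM at ZT12 in pif7 and 58.6 and 66.8 TPM in Col-0. As deposited, its TPM was thus highest at ZT8 in pif7 and at ZT12 in Col-0. PRR9 has a near-identical copy, AT2G46670, with the same course and an amplitude of 4.30, and reads shared between them make both levels uncertain.

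Of 8 genes of the evening complex and the GIGANTEA group 7 varied, with 4 peaks at ZT8, 2 at ZT12 and 1 at ZT20. ELF4 (AT2G40080), the small protein of the complex, had 5.83, 1.46, 3.79, 137, 179, 87.7 and 36.6 TPM in pif7 and 5.22, 1.37, 2.27, 138, 123, 94.2 and 31.5 TPM in Col-0. Its peak lay at ZT8 with median-ratio scaling and at ZT12 with TPM as deposited or quantile normalization. LUX, the DNA-binding member, peaked at ZT8 with 90.6 TPM in pif7 and 99.0 TPM in Col-0. BOA, a close relative of LUX, peaked one sampled time later, with 25.8 TPM at ZT12 in pif7 and 20.9 TPM in Col-0, against 3.37 and 4.82 TPM at ZT8. ELF3, the scaffold of the complex, had a smaller amplitude of 1.72.

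GI (AT1G22770), a partner of light-sensing F-box proteins, was near 0 at ZT20 and ZT0 and peaked at ZT8 with 42.1 TPM in pif7 and 37.9 TPM in Col-0. Its amplitude was 5.42 with the pseudocount of 1, 3.24 with one of 5 and 8.58 with one of 0.1. At ZT0 it had 0.0206 TPM in pif7 and 0.123 TPM in Col-0. FKF1 (AT1G68050), a blue light receptor that acts with GI in flowering, had 0.0484, 0.523, 1.68, 74.6, 21, 7.31 and 0.871 TPM in pif7 and 0.0973, 0.154, 1.56, 74.6, 22.8, 6.69 and 0.953 TPM in Col-0. Its rise of 4.96 ± 0.16 log2 units between ZT5 and ZT8 came within 3 h and was shared by both genotypes. The relatives of FKF1 moved little. LKP2 had an amplitude of 0.66 and lost its call in 11 of the alternative fits, each of which left out 1 library or 1 time, and ZTL did not pass (amplitude 0.42, adjusted p = 0.117).

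Of 9 coactivators and partners 8 varied. LNK1, LNK3 and LNK4, coactivators that work with REVEILLE factors, peaked at ZT4 with amplitudes of 6.0, 6.04 and 6.78, and LNK2 at ZT0 with 6.0. LNK4 (AT5G06980) had 130, 154, 116, 21.6, 0.940, 0.496 and 0.670 TPM in pif7 and 85.9, 162, 128, 38.1, 1.3, 0.435 and 1.13 TPM in Col-0. LNK1 was late by comparison, with 3.86 and 3.63 TPM at ZT0 and 73.1 and 70.5 TPM at ZT4 in pif7 and Col-0. COR27 and COR28, repressors named for their response to cold, peaked at ZT8 with amplitudes of 5.76 and 5.88. CHE, a repressor of CCA1, had an amplitude of 1.28, LWD1 one of 0.84, and LWD2 did not pass (amplitude 0.41, adjusted p = 0.0922).

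Promoters of these genes were searched for short motifs in the 250 bases before the gene start given in the files, read from the TAIR10.1 assembly, whose nuclear sequence serves TAIR10. The evening element, AAAATATCT, is the letter pattern bound by CCA1 and LHY, and the G-box, CACGTG, is bound by PIF and other bHLH and bZIP factors. Both strands were searched, and none of the 61 promoters with both motifs had overlapping matches. The evening element stood in 709 of 33306 nuclear promoters (2.13%). Of 34 promoters of clock genes and of GRP7 and GRP8, 8 held it. RVE6, ZTL and LWD2, which did not pass the time test, are among the 34 and were also placed by their highest mean. The element was in 7 of the 14 promoters whose genes had their highest mean at ZT8 or ZT12. It was in 0 of the 13 with the highest at ZT0 or ZT4. The windows with it are shown 5′ to 3′ on the gene's strand, since they all belong to genes of the middle of the day or later except PRR9. Capitals mark the evening element in either orientation.
FKF1 (chr1:25508433-25508667, plus strand): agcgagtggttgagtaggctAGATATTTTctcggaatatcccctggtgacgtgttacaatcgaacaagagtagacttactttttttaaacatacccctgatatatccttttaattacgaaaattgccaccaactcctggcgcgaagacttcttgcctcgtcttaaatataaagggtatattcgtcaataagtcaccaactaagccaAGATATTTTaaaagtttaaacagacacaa
LUX (chr3:17182969-17183017, plus strand): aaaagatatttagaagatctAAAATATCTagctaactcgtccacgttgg
BOA (chr5:24003825-24003873, plus strand): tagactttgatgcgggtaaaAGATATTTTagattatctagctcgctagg
COR27 (chr5:17199902-17199969, minus strand): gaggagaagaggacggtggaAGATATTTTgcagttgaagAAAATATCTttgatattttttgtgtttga
COR28 (chr4:16285170-16285218, minus strand): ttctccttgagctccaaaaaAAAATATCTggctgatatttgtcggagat
GRP7 (chr2:9266415-9266643, minus strand): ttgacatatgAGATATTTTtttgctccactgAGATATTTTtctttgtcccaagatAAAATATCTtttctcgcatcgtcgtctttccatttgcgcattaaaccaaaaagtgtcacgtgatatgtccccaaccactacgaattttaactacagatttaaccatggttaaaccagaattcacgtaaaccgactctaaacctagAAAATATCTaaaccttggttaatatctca
GRP8 (chr4:18275200-18275248, minus strand): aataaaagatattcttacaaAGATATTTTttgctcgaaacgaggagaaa
PRR9 (chr2:19232613-19232648, plus strand): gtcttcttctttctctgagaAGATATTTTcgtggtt
GRP7 held 4 copies, FKF1 and COR27 held 2 each, and the others 1. The G-box stood in 6.76% of all nuclear promoters and in 16 of the 34, including 8 of the 13 with a peak at ZT0 or ZT4 and 5 of the 14 with a peak at ZT8 or ZT12. Those 8 are LHY, RVE8, the 4 LNK genes, RVE1 and RVE3, and the windows of the first 6 are shown as examples, with the G-box in capitals.
LHY (chr1:37926-37971, minus strand): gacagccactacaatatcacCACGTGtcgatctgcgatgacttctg
RVE8 (chr3:2946230-2946275, plus strand): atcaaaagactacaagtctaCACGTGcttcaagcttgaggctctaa
LNK1 (chr5:25676800-25676845, minus strand): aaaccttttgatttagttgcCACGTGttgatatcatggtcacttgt
LNK2 (chr3:20179028-20179066, minus strand): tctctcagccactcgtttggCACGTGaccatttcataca
LNK3 (chr3:3923556-3923601, plus strand): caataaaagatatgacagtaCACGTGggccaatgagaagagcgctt
LNK4 (chr5:2167218-2167258, plus strand): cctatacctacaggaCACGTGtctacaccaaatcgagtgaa

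Across the genome the evening element was commonest at the same peak times. It was in 14.54% of 1197 promoters of genes that peaked at ZT8, in 8.19% of 403 at ZT12, and in 0.59% of 1017 at ZT0. Among genes with an amplitude of at least 2 log2 units it was in 62 of 217 at ZT8 (28.57%) and 13 of 43 at ZT12 (30.23%), against 0 of 131 at ZT0 and 0 of 46 at ZT20. Genes that were tested but did not vary held it in 1.54% of promoters. The G-box, at that amplitude, was in 19.85, 25.24, 20, 14.75, 23.26, 14.68 and 8.7% of promoters of genes that peaked at ZT0 to ZT20 in order. The CCA1 binding site AAAAATCT, the morning element CCACAC and the GATA box GGATAA were also searched. At that amplitude they were in 10.14, 11.52 and 25.35% at ZT8, 2.29, 16.79 and 15.27% at ZT0, and 13.04, 19.57 and 28.26% at ZT20. Their shares over all nuclear promoters were 6.13, 6.91 and 12.26%. Of the 34 promoters above 5 held the CCA1 binding site. They included 0 of the 14 with a peak at ZT8 or ZT12 and 2 of the 13 at ZT0 or ZT4. Promoters of genes that peaked at ZT16 held the site II motif TGGGCC in 21.92% and the telo box AAACCCTA in 9.29%, both of them known from ribosomal protein genes, against 9.02% and 1.24% at ZT5. Over all nuclear promoters the shares were 12.87% and 6.25%, and among genes that were tested and did not vary 19.12% and 6.44%. Matches of the telo box and site II overlapped in 1 promoter, of each with the evening element in 1, and of the G-box with site II in 7. The morning element overlapped the G-box in 67 of the 249 promoters with both. It overlapped site II in 43 of 293 and the GATA box in 34 of 303, so its shares are not independent of theirs. These shares describe letters in a fixed window and were not tested.

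**Figure D3:**
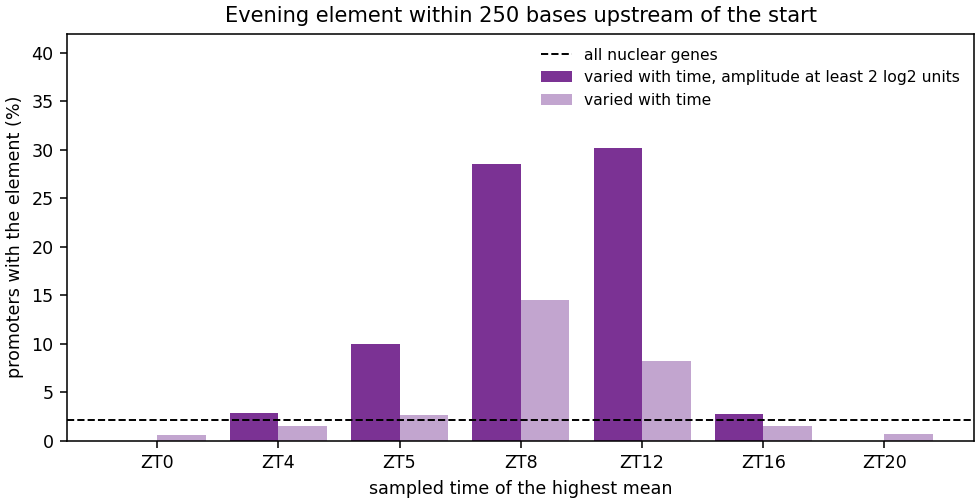
Percent of promoters with the evening element within 250 bases upstream (vertical axis) by peak time (horizontal axis), for genes with an amplitude of at least 2 log2 units (dark bars) and for all genes that varied (light bars). The dashed line is the 2.13% of all nuclear genes, and the dark bars reach 28.57% at ZT8 and 30.23% at ZT12.

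GRP7 and GRP8, RNA-binding proteins under direct control of the clock, are among the genes with the element. GRP7 (AT2G21660) had 306, 183, 363, 2640, 2500, 1250 and 606 TPM in pif7 and 397, 213, 358, 2390, 2930, 1120 and 503 TPM in Col-0, an amplitude of 3.69 on a gene with a mean of 1126 TPM. It peaked at ZT8 in pif7 and at ZT12 in Col-0, and the peak of the mean moved to ZT12 with TPM as deposited or quantile normalization. GRP8 peaked at ZT8 with 437 TPM in pif7 and 355 TPM in Col-0, with an amplitude of 2.69.

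Of 12 photoperiod and flowering genes 11 varied (91.7%, against 31.4% of all genes tested). The CYCLING DOF FACTOR genes, repressors of CONSTANS, were high in the morning. CDF1 and CDF2 peaked at ZT0, and CDF3 (amplitude 5.18) and CDF5 at ZT4. CDF2 had an amplitude of 3.62, and of 1.96 without ZT0. CO, the gene CONSTANS itself, had 2.57, 0.218, 0.746, 1.16, 3.46, 3.95 and 3.64 TPM in pif7 and 5.12, 0.383, 0.362, 1.2, 5.66, 3.18 and 4.99 TPM in Col-0. It was low at ZT4 and ZT5 and higher from ZT12 to ZT0. FT, the flowering signal that CO activates, had its highest level at ZT16, with 2.95 TPM in pif7 and 4.35 TPM in Col-0. SVP, a flowering repressor, and SOC1, a flowering activator, peaked at ZT8, and FLC, the cold-regulated flowering repressor, did not pass (amplitude 0.23, adjusted p = 0.872). COL2, a relative of CO, had one of the widest swings of all, 6.93 log2 units, with 450 TPM at ZT0 in pif7 and 439 TPM in Col-0, against 2.2 and 3.53 TPM at ZT12.

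Among the PIF factors, growth promoters of which several are removed by phytochromes in light, PIF4 and PIF5 peaked at ZT4. PIF4 (AT2G43010) had 2.04, 60.3, 58.2, 57.6, 7.06, 1.65 and 0.771 TPM in pif7 and 2.36, 62.4, 64.0, 57.1, 10.7, 0.982 and 0.123 TPM in Col-0. It was about level from ZT4 to ZT8 and fell by 2.75 ± 0.22 log2 units between ZT8 and ZT12, with an amplitude of 5.52 ± 0.22. PIF5 had an amplitude of 3.77 and was higher than PIF4 at ZT0, with 58.7 TPM in pif7 and 63.1 TPM in Col-0. PIF8 peaked at ZT0 (amplitude 3.39, and 2.25 without ZT8) and PIF1 at ZT0 with 1.17. PIF3 and PHYB did not pass, with amplitudes of 0.46 and 0.55. PIF7 had an amplitude of 1.89 and peaked at ZT4 in both genotypes, and it lost its call when the genotype term was left out.

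Of 22 auxin response and growth genes tested 15 varied (68.2%, against 31.4% of all genes tested). Of these 15, 13 peaked at ZT4, against 12.1% of all genes that varied. EXPA8, an expansin that loosens cell walls, had 96.6 TPM at ZT4 in pif7 and 80.7 TPM in Col-0, against 7.49 and 8.66 TPM at ZT20. PRE1, a growth-promoting helix-loop-helix protein, and IAA19, an auxin-induced repressor, had amplitudes of 2.52 and 1.76. SAUR20 and SAUR21, small auxin-induced growth genes, had 3.56 and 3.37, but the SAUR19 to SAUR24 cluster holds near-identical copies whose reads cannot be assigned with certainty. From ZT0 to ZT4 9 of the 22 rose and 1 fell, against 5.36% and 4.62% of all genes tested. The auxin synthesis genes YUC8 and YUC9 and the shade gene ATHB2 did not pass, with adjusted p of 0.0667, 0.18 and 0.0979 in limma. The count of 15 was 12 without ZT4.

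The light-harvesting antenna was high from ZT4 to ZT8 and low from ZT16 to ZT20. All 17 antenna genes tested varied, 5 with a peak at ZT4 and 12 at ZT8, with a median amplitude of 2.52. Their summed level ran from 17700 to 64000 TPM, with a median of 40100. LHCB2.2 (AT2G05070), a trimeric antenna protein of photosystem II, had 1290, 3070, 2970, 2100, 126, 66.3 and 69.6 TPM in pif7 and 1420, 2750, 2770, 2000, 122, 50.6 and 69.3 TPM in Col-0. It fell by 4.21 ± 0.11 log2 units between ZT8 and ZT12, while the lights were still on, and rose by 4.29 ± 0.11 between ZT20 and ZT0. The 3 LHCB2 genes had amplitudes of 4.83 to 5.60, LHCB3 3.32 and LHCA1, of the photosystem I antenna, 2.52. LHCB1.3, the most abundant at a mean of 7512 TPM, had only 0.68, with 5640 to 8460 TPM in pif7 and 5300 to 9080 TPM in Col-0. The LHCB1 and LHCB2 copies are near-identical, so the split between them is uncertain. Between neighbouring times 14 of the 17 rose from ZT0 to ZT4, 16 fell from ZT8 to ZT12 and 10 fell from ZT12 to ZT16. With TPM as deposited 2 peaked at ZT4, 5 at ZT5 and 10 at ZT8, and with quantile normalization 15 varied, with 1 peak at ZT0. With 1 library left out 16 or 17 varied.

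Of 12 chlorophyll synthesis genes 10 varied (83.3%, against 31.4% of all genes tested), 6 of them with a peak at ZT4. With TPM as deposited 5 peaked at ZT4, and with quantile normalization 3 at ZT4 and 4 at ZT5. CAO, which makes chlorophyll b, had 332, 374, 344, 111, 25.9, 66.0 and 95.2 TPM in pif7 and 343, 333, 293, 101, 28.8, 52.3 and 126 TPM in Col-0, an amplitude of 3.79. It was high from ZT0 to ZT5 and lowest at ZT12, ahead of the antenna. HEMA1, the first committed enzyme of the pathway, and GUN4, a cofactor of magnesium chelatase, had 2.76 and 2.33, and 1.27 and 1.24 without ZT12. From ZT8 to ZT12 9 of the 12 fell, and from ZT12 to ZT16 4 rose, which differs from the antenna, where none rose and 10 fell. Of 10 Rubisco and Calvin cycle genes 7 varied (70.0%, against 31.4% of all genes tested). Their amplitudes were smaller, with a median of 0.77 over the 10. CP12-2, a regulator of the cycle, was the exception with 2.28 and a peak at ZT16, where it had 1070 TPM in pif7 and 1330 TPM in Col-0. RBCS1A, a Rubisco small subunit, did not pass (amplitude 0.18, adjusted p = 0.829).

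Starch is built in the light and broken down at night. Of 17 starch breakdown genes 16 varied, with 6 peaks at ZT8, 4 at ZT12 and 3 at ZT16. With TPM as deposited or quantile normalization 15 varied, 1 of them with a peak at ZT16. With both libraries of 1 time left out 13 to 16 varied. AMY3, an alpha-amylase of the chloroplast, had 4.80, 40.3, 65.6, 106, 89.4, 41.7 and 11.8 TPM in pif7 and 7.40, 33.4, 62.1, 108, 122, 34.4 and 15.9 TPM in Col-0. PHS1 and PHS2, the glucan phosphorylases, had amplitudes of 2.83 and 3.94 (2.62 for PHS2 without ZT0), and GWD1 and PWD, which phosphorylate starch before its breakdown, 2.57 and 2.78. BAM3, the main beta-amylase of leaves, was out of step, with 413, 78.2, 64.7, 64.0, 153, 405 and 315 TPM in pif7 and 415, 64.0, 93.9, 98.5, 186, 376 and 352 TPM in Col-0. BAM9, a catalytically inactive relative, peaked at ZT0 with 256 TPM in pif7 and 288 TPM in Col-0 (amplitude 4.88, and 2.89 without ZT0). Of 10 starch synthesis genes 8 varied with a median amplitude of 1.2, and GBSS1, which makes amylose, stood far above with 6.60 ± 0.22. GBSS1 had 152 TPM at ZT0 in pif7 and 185 TPM in Col-0, against 0.720 and 0.853 TPM at ZT12.

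All 6 genes known from darkness and sugar starvation varied, against 31.4% of all genes tested. Without both ZT16 libraries 4 of the 6 did. DIN6, an asparagine synthetase, had its highest level in the light, with 43.5 TPM at ZT5 in pif7 and 43.4 TPM in Col-0, against 2.58 and 2.62 TPM at ZT16. DIN1 was highest at ZT20, with 96.0 TPM in pif7 and 106 TPM in Col-0, against 15.6 and 9.18 TPM at ZT16, a rise of 2.85 ± 0.28 log2 units. From ZT16 to ZT20 4 of the 6 rose. Nitrate and carbon genes varied in 8 of 9 cases. NIA2, the main nitrate reductase, had 1150 TPM at ZT0 in pif7 and 1280 TPM in Col-0, against 226 and 235 TPM at ZT8, and its peak moved to ZT20 with TPM as deposited or quantile normalization. The catalases, which break down hydrogen peroxide, differed in their time. CAT2 peaked at ZT0 with 902 TPM in pif7 and 1040 TPM in Col-0 and CAT3 at ZT8 with 742 TPM in pif7 and 665 TPM in Col-0, where ZT12 had 717 TPM.

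All 12 flavonoid and anthocyanin enzyme genes varied and all 12 peaked at ZT16, under each of the 3 scalings and with any library left out except pif7 ZT16, without which 11 did. CHS, the entry enzyme of the pathway, had 85.7, 89.6, 89.5, 28.6, 64.2, 306 and 134 TPM in pif7 and 116, 99.9, 79.1, 34.1, 56.8, 191 and 156 TPM in Col-0. FLS1, which makes flavonols, rose to 165 TPM at ZT16 in pif7 and 127 TPM in Col-0, against 17.1 TPM in both at ZT8 (amplitude 3.01, and 1.70 without ZT16). DFR, of the anthocyanin branch, had a second high at ZT4, with 19.4 TPM in pif7 and 18.9 TPM in Col-0, beside 26.6 and 25.2 TPM at ZT16. All 12 rose from ZT12 to ZT16 and 10 fell from ZT16 to ZT20. Of 15 regulators 13 varied and 5 of these peaked at ZT16, among them the flavonol factors MYB12 and MYB111, the anthocyanin factors PAP1 and PAP2, and HY5, a light signalling factor. HYH, the relative of HY5, peaked at ZT0 with an amplitude of 3.64. Without Col-0 ZT16 10 of the 15 varied.

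Of 12 glucosinolate genes 8 varied (66.7%, against 31.4% of all genes tested), 5 of them with a peak at ZT16. CYP79F1, an aliphatic glucosinolate enzyme, fell by 2.69 ± 0.20 log2 units from ZT16 to ZT20, where it had 12.2 TPM in pif7 and 11.1 TPM in Col-0, against 90.8 and 60.6 TPM at ZT16. BCAT4 and CYP83A1, of the same branch, had amplitudes of 1.59 and 1.52 (0.93 for each without ZT16). Of 12 jasmonate genes 4 varied (33.3%), near the 31.4% of all genes tested. The median of the list was highest at ZT5, 0.63 log2 units above each gene's mean, and was 0.03 at ZT16. Of the 4, 3 peaked at ZT16, and 1 with quantile normalization. LOX2, an early enzyme of jasmonate synthesis, had an amplitude of 2.84, with 75.5 TPM at ZT16 in pif7 and 85.6 TPM in Col-0, and with 28.9 and 101 TPM at ZT20. The jasmonate genes differed between the ZT5 libraries. JAZ10, a repressor gene that jasmonate induces, had 3.07 TPM in pif7 and 20.5 TPM in Col-0 at ZT5, and between 1.4 and 5.26 TPM in the other libraries. The count of 4 was 10 without pif7 ZT5, which left only the high Col-0 library at that time, and 5 without Col-0 ZT5.

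Of 15 cold response genes 13 varied at this constant temperature, 8 with a peak at ZT8 and 4 at ZT12. CBF3, a transcription factor of cold acclimation, had 9.37 TPM at ZT8 in pif7 and 6.77 TPM in Col-0, and at most 0.966 and 0.993 TPM at the other times. COR15B, a chloroplast protein that protects membranes, had 2.03, 2.59, 3.77, 87.9, 151, 30.9 and 6.79 TPM in pif7 and 3.15, 2.65, 14, 141, 196, 61.5 and 4.84 TPM in Col-0. Its amplitude was 5.53 ± 0.39. COR15A and COR78 were higher in Col-0 than in pif7 at ZT5, with 9.46 TPM in pif7 against 61.0 TPM in Col-0 for COR15A and 30.4 against 128 TPM for COR78. The list's count was 11 without Col-0 ZT5 and between 9 and 12 with any 1 library left out. KIN1 and ZAT12 did not pass.

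Of 17 heat shock genes 11 reached the level for testing. Of these 11, 7 varied (63.6%, against 31.4% of all genes tested), 5 of them with a peak at ZT16. HSC70-3, a constitutive cytosolic chaperone, had an amplitude of 2.53, with 280 TPM at ZT16 in pif7 and 257 TPM in Col-0, against 52.6 and 47.2 TPM at ZT20. HSP70-4, its heat-induced relative, reached 14.1 TPM at ZT16 in pif7 and 11.7 TPM in Col-0 (amplitude 1.78, and 0.87, no longer called, without ZT16). HSP101, a disaggregase that heat induces, did not pass, with 2.31 to 4.47 TPM in pif7 and 2.59 to 4.97 TPM in Col-0. MBF1C, a coactivator of the heat response, passed with an amplitude of 1.86 and did not pass without Col-0 ZT16 or Col-0 ZT20. Without both ZT16 libraries 4 of the 11 varied.

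Of 18 cytosolic ribosomal protein genes 6 varied (33.3%, against 31.4% of all genes tested), with a median amplitude of 0.57 over the 18, against 0.64 over all genes tested, and all 6 peaks at ZT16. The count depended on single libraries and on the scaling. It was 0 without Col-0 ZT16, 1 without either ZT5 library, either ZT8 library or Col-0 ZT12, 2 without either ZT4 library, 4 without Col-0 ZT0 or pif7 ZT12, and 9 and 10 without Col-0 ZT20 and pif7 ZT20. With quantile normalization 1 passed, with its peak at ZT0. Of 15 cell cycle genes only KRP1, a cyclin-dependent kinase inhibitor, passed (amplitude 1.4), and CYCB1;1, a mitotic cyclin, had an amplitude of 0.46 (adjusted p = 0.59). Of 13 genes in common use as references in quantitative PCR 4 varied (30.8%), led by UBQ10 with an amplitude of 1.03, where ZT4 had 1120 TPM in pif7 and 1090 TPM in Col-0 and ZT16 had 576 and 487 TPM. GAPC2, ACT8 and ACT2 followed with 0.68, 0.62 and 0.56, and both actin genes lost their call when any of several libraries was left out. PP2AA3, a phosphatase subunit, had the smallest amplitude, 0.12 (adjusted p = 0.965).

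Markers of tissues that differ in their share of the seedling were also followed. Of 11 root genes tested 3 varied (27.3%, against 31.4% of all genes tested; 1 without both ZT0 libraries), led by IRT1, an iron transporter, with an amplitude of 2.62, and the summed level of the list was 96.0 to 198 TPM. Of 7 stomatal lineage genes 3 varied (42.9%, against 31.4% of all genes tested), and 2 without both ZT4 libraries. Their summed levels were 55.6 to 83.6 TPM. No seed storage gene reached the level for testing, with sums of 0.617 to 2.42 TPM over 6 genes. The part of tissue makeup in the other lists was not tested.

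**Figure D4:**
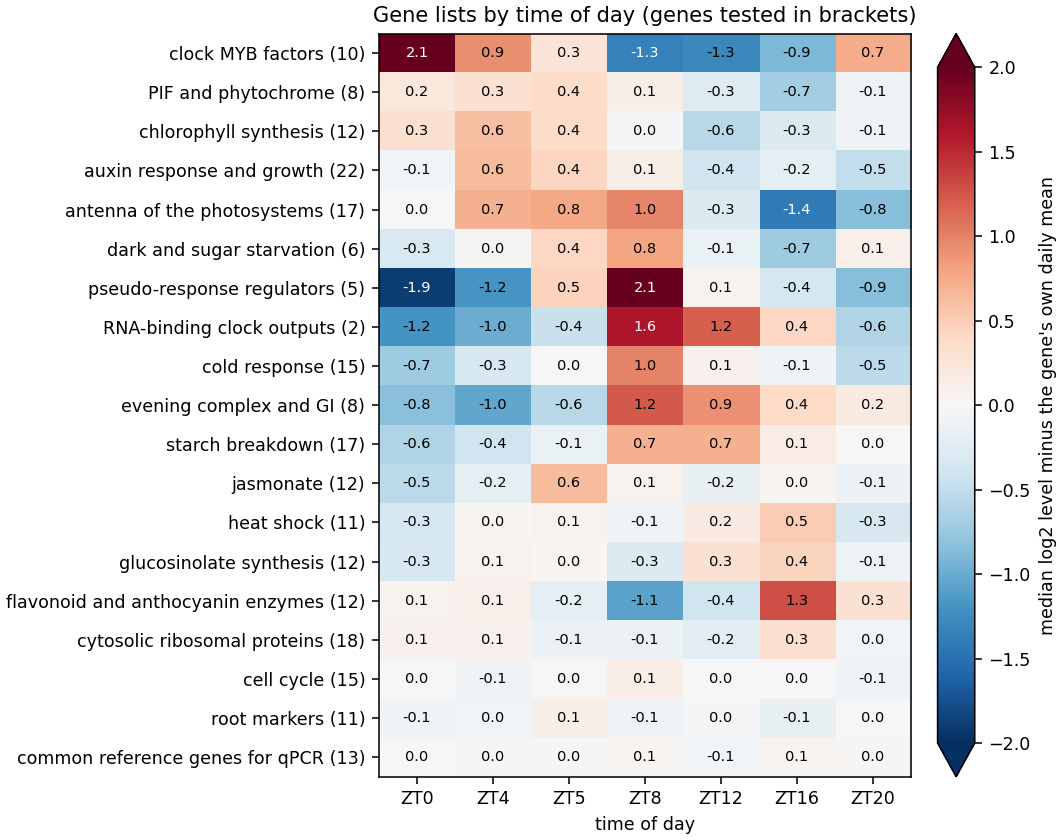
Median over a list's tested genes of the log2 level at each time minus the gene's own mean over the 7 times, for 19 lists (rows, number of genes in brackets) and 7 times (columns). Medians reach 2.12 for clock MYB factors at ZT0, 2.13 for pseudo-response regulators at ZT8 and 1.29 for flavonoid enzymes at ZT16, and fall to -1.42 for antenna genes at ZT16, while reference and cell cycle genes stay near 0.

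Neighbouring times were compared with the same fit, over unequal steps of 4, 1, 3, 4, 4, 4 and 4 h. From ZT0 to ZT4 1103 genes rose (5.36%) and 951 fell (4.62%), and with TPM as deposited 860 rose and 1051 fell. PRR7 rose by 5.32 ± 0.15, PRR9 by 4.51 ± 0.21 and PIF4 by 4.34 ± 0.22 log2 units, while RVE2 fell by 4.53 ± 0.23. The total of this step was 647 without pif7 ZT4, 823 without Col-0 ZT4, 1247 without pif7 ZT0 and 1342 without Col-0 ZT0, against 2054 with all libraries. From ZT4 to ZT5 only 5 genes rose (0.0243%) and 2 fell (0.00971%), although 1613 had an unadjusted p under 0.05. PRR5 rose by 1.64 ± 0.13 (adjusted p = 0.00136), and AT1G56300, ABF1, PHS2 and MEE14 rose by 1.80, 1.23, 1.02 and 0.92. ESE3, an ethylene response factor, fell by 1.67. TRNK.1, a mitochondrial transfer RNA gene with a mean of only 1.06 TPM, fell by 2.87. MEE14 and TRNK.1 were named after their values were seen. The count of 7 was 731 when only the 4 libraries of these times were fitted and 0 to 53 with 1 library left out, with the highest count without pif7 ZT5 and the lowest without Col-0 ZT4.

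From ZT5 to ZT8 645 genes rose (3.13%) and 528 fell (2.56%). AT1G07050, COR27 and COR28 rose by 5.62, 5.57 and 5.25 log2 units, and CCA1 fell by 3.61. From ZT8 to ZT12 363 rose (1.76%) and 720 fell (3.5%). CIPK20, a protein kinase, fell by 5.44 ± 0.20, and JMJD5, a clock-linked histone demethylase, rose by 3.39 ± 0.18. From ZT12 to ZT16 582 rose (2.83%) and 214 fell (1.04%), and GSTF12, which carries anthocyanin into the vacuole, rose by 2.96 ± 0.29. These splits moved with scaling. With TPM as deposited, which shifts the median of all genes by -0.12, 0.15 and -0.15 log2 units in the 3 steps, 498 rose and 755 fell from ZT5 to ZT8, 642 and 472 from ZT8 to ZT12, and 373 and 433 from ZT12 to ZT16. With quantile normalization the last of these had 438 and 316. The count of 1173 in the first step was 472 without pif7 ZT8, 494 without Col-0 ZT8, 543 without Col-0 ZT5 and 635 without pif7 ZT5. The 1083 of the second compare with 335 without Col-0 ZT8, 381 without Col-0 ZT12, 446 without pif7 ZT8 and 572 without pif7 ZT12. The 796 of the third compare with 154 without Col-0 ZT12, 166 without Col-0 ZT16, 345 without pif7 ZT12, 489 without Col-0 ZT4, 493 without pif7 ZT4 and 1635 without pif7 ZT16.

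With all 14 libraries the count was highest in the step between ZT16 and ZT20. From ZT16 to ZT20 1337 genes rose (6.49%) and 1365 fell (6.63%). LHY rose by 4.50, and FTM1, a fatty acid desaturase gene, by 3.45 ± 0.35. LSU2, a gene that responds to low sulfur, fell by 3.31 ± 0.33, and CYP79F1 by 2.69. With TPM as deposited 1712 rose and 950 fell. The count of 2702 was 957 without Col-0 ZT16, where ZT4 minus ZT0 had 2187, and 534 without Col-0 ZT20, where ZT4 minus ZT0 had 1829. With only the 4 libraries of both times it was 2203, against 4012 for ZT8 minus ZT5. From ZT20 to ZT0 285 rose (1.38%) and 323 fell (1.57%). LNK4 rose by 5.83 ± 0.27 and LNK2 by 4.39 ± 0.16, while AT3G62550 fell by 4.31 ± 0.26. This total of 608 was 335 without Col-0 ZT0 and 245 without either ZT20 library.

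**Figure D5:**
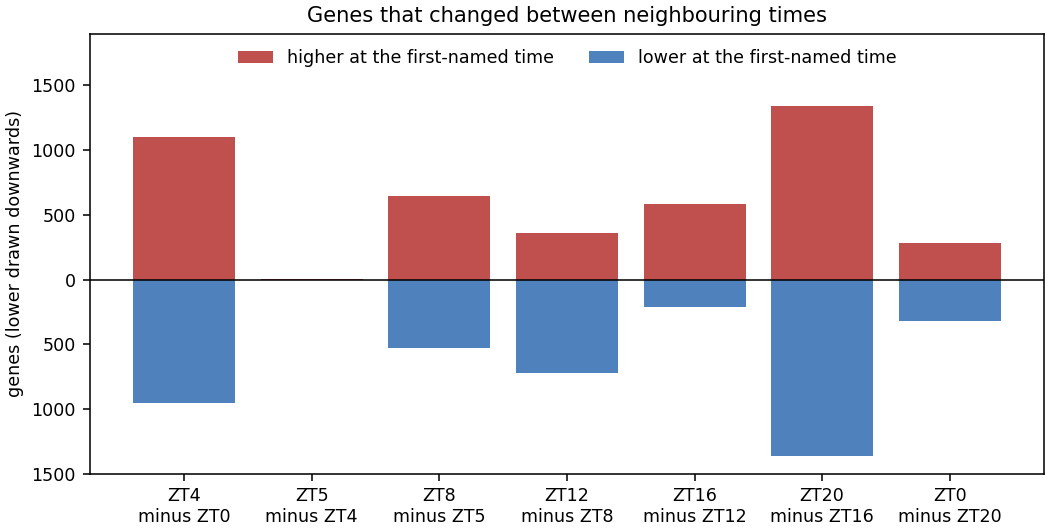
Genes that passed the test between neighbouring times, with those higher at the first-named time drawn upwards and those lower drawn downwards. The steps ZT4 minus ZT0 (1103 and 951) and ZT20 minus ZT16 (1337 and 1365) have the highest totals with all 14 libraries, and ZT5 minus ZT4, 1 h apart, has 5 and 2.

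The daily course was set side by side in pif7 and Col-0. Of the 6459 genes that varied, 3909 (60.5%) had their highest level at one and the same time in pif7 and Col-0, and 5617 (87.0%) at equal or neighbouring times. Among the 701 genes of at least 2 log2 units 556 (79.3%) shared the peak. The time of the maximum of a 24 h cosine, pif7 minus Col-0, differed by a median of 0.19 h, with quartiles at -0.58 and 0.98 h. Among the 701 genes the median was 0.00 h, with quartiles at -0.38 and 0.38 h. The time test takes disagreement between the genotypes as its error, so it favours genes whose courses agree. Shared peaks and small differences are thus partly set by the choice of these genes. LHY, CCA1, PRR7, PRR5 and FKF1 shared their peak, while after scaling PRR9 peaked at ZT5 in pif7 and at ZT4 in Col-0 (as deposited its TPM was highest at ZT5 in both), LNK2 at ZT0 in pif7 and at ZT4 in Col-0, and ELF4 at ZT12 in pif7 and at ZT8 in Col-0. The course differed between genotypes in 0 genes (0%; limma's test of the cosine terms by genotype, adjusted p under 0.05), and 186 had an unadjusted p under 0.05. An unadjusted threshold of 0.05 would pass more genes than these 186 if nothing differed, so the test was conservative. It counts any departure from a 24 h cosine as error, including narrow peaks that both genotypes share. With this and 1 library per time, the count of 0 does not show that the courses are alike.

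The course at constant 17 °C was also compared with that of the oscillating regime over all 28 libraries, where 21031 genes were tested. In 6255 genes (29.7%) the course differed between the regimes (limma's F test of regime by time, 6 degrees of freedom). They held 3724 genes that varied with time at constant temperature, which is 57.9% of the 6435 such genes in this set and 59.5% of the genes whose course differed. Of the 21031 genes, 6435 varied with time at constant 17 °C and 13818 in the oscillating regime. Of 5889 genes that varied in each regime, 2220 (37.7%) peaked at the same time in both. The median amplitude of the 5889 was 1.05 log2 units at constant 17 °C and 1.21 in the oscillating regime. By list, 5 of 5 pseudo-response regulators, 9 of 10 clock MYB genes and 8 of 9 coactivators differed. So did 5 of 8 genes of the evening complex and GIGANTEA group, 16 of 17 antenna genes and 12 of 12 flavonoid enzymes. Cytosolic ribosomal protein genes differed in 14 of 18 cases and reference genes in 5 of 13. Lower counts came from jasmonate genes (4 of 12), root genes (2 of 11), cell cycle genes (1 of 15) and stomatal lineage genes (0 of 7). BOA, with adjusted p = 0.116, ZTL and LKP2 did not pass in that test, nor did PIF7 (adjusted p = 0.125). The regimes were separate sets of libraries, and a difference between sets other than temperature was not tested.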

How the data were processed

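RNA of whole seedlings was sequenced in 28 libraries, of which the 14 at constant 17 °C are described. Per the submitters' processing notes, HISAT2 and StringTie were used with the TAIR10 genome on paired-end reads; versions and strand setting are not given in the sources used here, so antisense and overlapping genes are uncertain. The authors deposited, per the file headers, a coverage, an FPKM and a TPM value per gene; coverage and FPKM served only to derive depth. The deposited TPM of the 33602 reference genes sum to 1011597 to 1034801 per library, more than standard TPM allows, so the column was treated as another unit. RefSeq symbols (TAIR10.1) matched 32835 genes.

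After division by median-ratio size factors, log2(TPM + 1) was modelled in limma 3.58.1 (R 4.3.3) with a variance trend, a term per time and a genotype term, for genes with at least 1 TPM in at least 2 of the 14 libraries. Adjusted p-values are Benjamini-Hochberg over all genes tested. Printed TPM values are as deposited. Genotype courses were compared with 24 h cosine terms (2 degrees of freedom), and regimes with regime by time terms (6 degrees of freedom) over 28 libraries. The code was tested on simulated data. Motifs were searched in Python 3.11.15. Tables used pandas 2.3.3 with numpy 2.4.6, and figures were drawn with matplotlib 3.10.9.

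Members of the 27 gene lists (316 genes) were chosen with earlier results of these data known. Named were the clock genes, the 4 largest amplitudes per peak time and per list, the 3 highest and lowest differences per step, and reference genes; other list members in the text were chosen after their values were seen, as were the alternatives for list counts and peak times. Other alternatives changed pseudocount, filter, scaling, variance trend, time model, genotype term and libraries. No read counts were used, so no counting interval is given.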

Additional observations from a re-analysis of the deposited data

Results flagged for a closer look

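The daily course differed between the constant and the oscillating regime in 6255 of 21031 genes by a test of the difference itself. At an unadjusted p under 0.05 the count was 8906. Among clock genes the course differed for LHY (adjusted p = 9.88e-07), PRR7 (adjusted p = 7.17e-10) and FKF1 (adjusted p = 2.25e-10). The gene counts by list stand with the comparison of the regimes. Each regime has 1 library per genotype and time, and other differences between the sets of libraries cannot be told apart from temperature.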

How the results depend on the processing

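The count of genes that varied with time, 6459, ran from 5217 with a 24 h cosine to 7138 without the genotype term, and with 1 library or time left out from 4839 to 6800. The regime count of 6255 ran from 5298 to 7360 with 1 library left out, and the genotype count was 0 in each alternative. The genotype test was conservative, as stated with the genotype courses, so this count does not show that the courses are alike. The count of 7 between ZT4 and ZT5 was 1 with a pseudocount of 0.1, 1 with no filter, 1 without the variance trend and 731 with only the 4 libraries of both times, where ZT8 minus ZT5 had 4012 and ZT0 minus ZT20 had 1045. With 1 library left out the steps ran from 647 to 2187 for ZT4 minus ZT0, 0 to 53 for ZT5 minus ZT4, 472 to 1442 for ZT8 minus ZT5, 335 to 1203 for ZT12 minus ZT8, 154 to 1635 for ZT16 minus ZT12, 534 to 2947 for ZT20 minus ZT16 and 245 to 646 for ZT0 minus ZT20. Leaving out a library leaves 1 at its time, assumed to vary like the others. Of 149 named genes 19 moved their peak with TPM as deposited and 18 with quantile normalization, where 3 lost their call. With a pseudocount of 5 the amplitude of 22 named genes moved by over 1.5 times, and with 0.1 that of 3. The causes were not tested. No paired analysis was possible because each condition has 1 library and the replicate numbers were given in order; the genotype term takes that place. Depth ran from 1.70 to 2.13 gigabases, and its part in the calls of low genes was not tested.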

Other observations

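Several genes outside the lists had amplitudes like those of the clock. AT3G62550 had 5.80, 27.4, 71.2, 643, 508, 193 and 109 TPM in pif7 and 3.04, 25.8, 54.9, 587, 363, 253 and 102 TPM in Col-0, an amplitude of 6.96 ± 0.26, and of 4.51 without ZT0. CIPK20, a protein kinase, had 103 TPM at ZT4 in pif7 and 94.9 TPM in Col-0, against 0.246 and 0.613 TPM at ZT12. BBX28, a B-box protein of light signalling, peaked at ZT4 with 161 TPM in pif7 and 151 TPM in Col-0 (amplitude 6.22 ± 0.19). CCL, named for its rhythmic transcript, had 894 TPM at ZT8 in pif7 and 812 TPM in Col-0, against 20 and 17.1 TPM at ZT0.

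Late in the day JMJD5, a histone demethylase, had 89.7 TPM at ZT12 in pif7 and 114 TPM in Col-0, against 0.826 and 1.42 TPM at ZT4. AT5G23240 also peaked at ZT12, with 74.6 TPM in pif7 and 89.5 TPM in Col-0 (amplitude 5.81 ± 0.16). COL9, a relative of CONSTANS, peaked at ZT20 with 95.2 TPM in pif7 and 92 TPM in Col-0, and had a first high at ZT12 with 78.3 and 84.7 TPM. SAG21, a stress and senescence gene, was the most abundant of these, with 3400 TPM at ZT20 in pif7 and 3350 TPM in Col-0, against 187 and 193 TPM at ZT4. AT5G62360 peaked at ZT8 with 243 TPM in pif7 and 404 TPM in Col-0, and at ZT5, where the Col-0 library was high for jasmonate and cold genes, it had 12.8 and 107 TPM.

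Of 133 chloroplast genes tested 24 varied with time and of 47 mitochondrial genes 1, both lower shares than the 31.4% of all genes tested. The libraries' share of TPM from chloroplast genes was 3.39% to 5.80%.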
